A study of Mus musculus with 8 samples.

Results

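The bone morphogenetic protein (BMP) genes described here are 10 in number, of the 31053 genes in the mouse matrix: the ligands Bmp2, Bmp4, Bmp6, Gdf5 and Gdf10, the secreted antagonists Grem1, Nog and Chrdl1, the decoy receptor Bambi and the type I receptor Bmpr1b. They were chosen by name, and their levels were read in cells picked out by other genes. The cells came from tibiae of untreated mice at postnatal day 56 (8 weeks). All animals carried MMP14 F/+, COL10A1cre, R26-tdT and Col1a1-2.3-GFP, so that 1 floxed Mmp14 allele and the Cre were shared by every cell and no group without them was compared. COL10A1cre acts in hypertrophic chondrocytes (HCs), which therefore switch on tdTomato and pass it to their descendants, and the WPRE element at the end of that transcript is what the counts detect best. Trabecular bone with part of the growth plate was harvested, the cells of 3 mice were pooled, and the 8 labelled samples form a single group whose barcodes carry no mark of sample or mouse, with 0 barcodes repeated. The pool was treated as 1 sample, so no test between animals could be made and none is given.

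BMPs are secreted ligands that bind pairs of type I and type II serine/threonine kinase receptors on the target cell and activate SMAD transcription factors. Noggin, gremlin and the chordin-like proteins bind the ligands outside the cell and keep them from the receptors, while BAMBI is a membrane protein that resembles a type I receptor without a kinase domain. In long bones this balance is known to act in joint formation, in the growth plate, in osteoblast differentiation and in the marrow.

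Cells were gated on raw counts of unique molecular identifiers (UMIs) of marker genes, in the 4472 of 12564 barcodes with at least 1600 genes. The kept barcodes held 3224 to 103543 UMIs each, with a median of 10451.5, and 57633356 in all. The Col2a1 gate (Col2a1 at least 10, Prg4 at most 1) held 243 cells with the collagen of cartilage. The Col10a1+Ihh gate (sum at least 5) held 79 cells with markers of hypertrophic and pre-hypertrophic chondrocytes, and the Prg4+Cilp gate (sum at least 2, with Acan) 197 cells with markers of articular cartilage. The Bglap gate (at least 20) held 54 cells with osteocalcin, the Cxcl12 gate (at least 20, with Lepr+Adipoq at least 2) 23 cells with markers of marrow stroma, and the Dcn+Col3a1 gate (each at least 3) 164 cells with markers of fibroblasts. The Cdh5 gate (any UMI) held 89 cells with an endothelial marker and the Ptprc gate (any UMI) 3286 cells with the pan-leukocyte marker. None of the 10 genes was used by a gate.

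The gates overlapped, and the overlaps bear on nearly every value below. Of the 3775 cells in a gate, 303 were in more than 1, and no cell of the Col10a1+Ihh gate was in that gate alone: 43 of its 79 cells were also in the Col2a1 gate and 35 in the Prg4+Cilp gate. The Prg4+Cilp and Dcn+Col3a1 gates shared 81 cells and the Bglap and Col2a1 gates 25. Summed marker lists were highest in the matching gate, except that general chondrocyte markers stood at 43264 counts per 1000000 UMIs (CPM) in the Col10a1+Ihh gate and 41571 CPM in the Col2a1 gate. Several lists include the genes that define the matching gate, such as Prg4, Cilp and Bglap, so this order was partly fixed in advance. Cxcl12, Lepr and Adipoq are likewise among the 10 marrow stroma markers counted next. In the Cxcl12 gate 9 of 10 marrow stroma markers were at least 4-fold above all other kept barcodes, at 25296 CPM summed, but so were 10 of 10 endothelial markers, at 1260 CPM, and 4 of its 23 cells were also in the Cdh5 gate. The Dcn+Col3a1 gate held osteoblast markers at 38803 CPM and articular chondrocyte markers at 19083 CPM, beside fibroblast or tendon markers at 18825 CPM. The Bglap gate also held chondrocyte markers at 25080 CPM, and the Cdh5 gate held neutrophil markers at 37480 CPM, with 47 of its 89 cells also in the Ptprc gate. Erythroid markers, at 7220 to 41101 CPM, were present in every gate. Their part in the values below was not tested.

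Levels are given as CPM of the summed UMIs of a gate with exact Poisson 95% intervals, shares of cells with Clopper-Pearson 95% intervals, and ratios as log2 with exact conditional 95% intervals. All of these cover counting error only, not differences between cells or mice. CPM was not divided by transcript length, so that a gene is compared with itself across gates and not with another gene.

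The 10 genes fell into several patterns by gate, shown in the plot of CPM in 8 gates. Bmp2, Gdf5 and Bmpr1b were highest in the Prg4+Cilp gate. Bmp4, Bmp6, Gdf10, Grem1 and Chrdl1 were highest in the Cxcl12 gate, Nog in the Col10a1+Ihh gate and Bambi in the Bglap gate. For 5 of them the first place was not separated from the second: the interval of the log2 ratio of the highest gate to the next included 0 for Gdf5, Gdf10, Grem1, Nog and Bmpr1b.

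**Figure D1:**
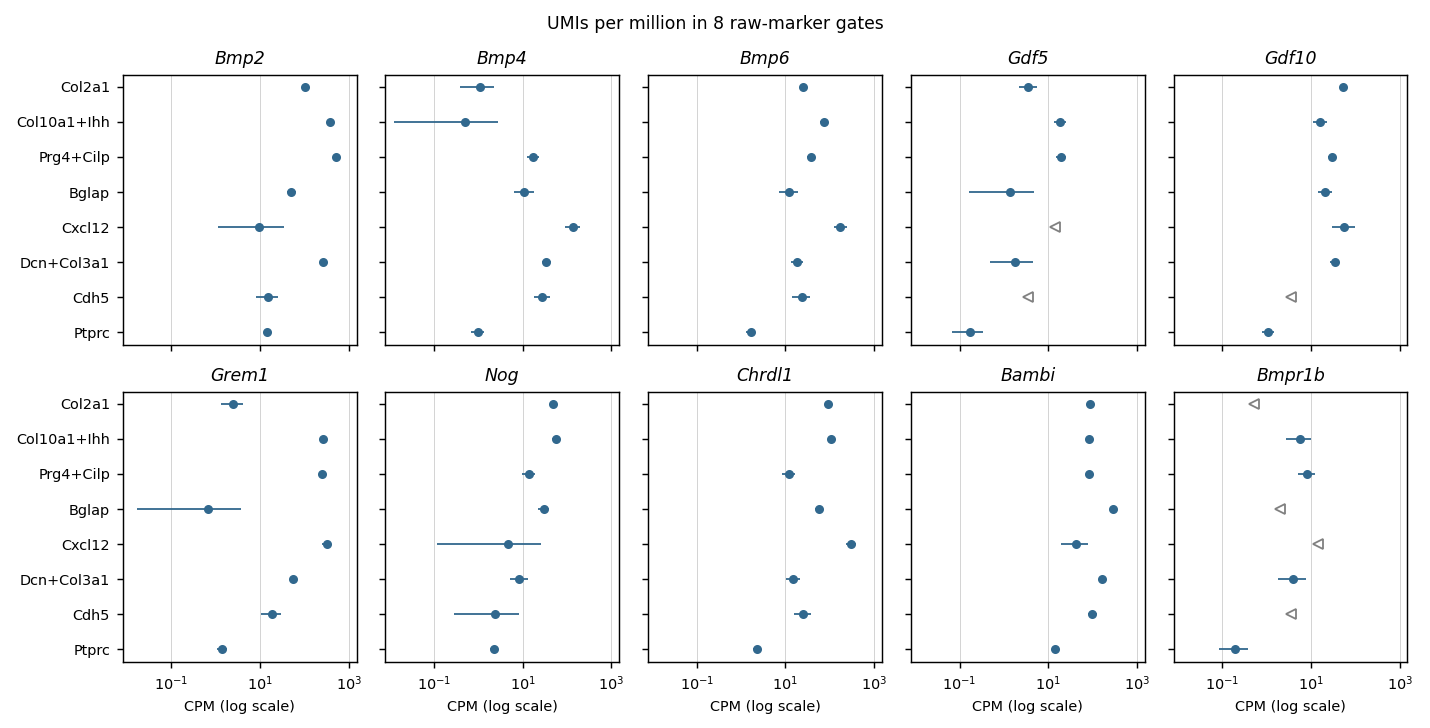
CPM of the 10 genes (horizontal axis, log scale) in each of 8 gates (vertical axis); points are levels of summed UMIs, bars are exact Poisson 95% intervals, and an open triangle stands at the level of 3 UMIs where none was seen. Bmp4, Bmp6 and Chrdl1 stand highest in the Cxcl12 gate at 136, 174 and 306 CPM, Bmp2 in the Prg4+Cilp gate at 530 CPM and Bambi in the Bglap gate at 296 CPM.

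Among the members with a promoter sequence in the table used here (from RefSeq, GRCm38.p6, the assembly of mm10), Bmp4, Bmp6, Grem1 and Gdf10 shared the Cxcl12 gate as their highest. The 250 bases before the start are shown for 3 of them, and not for Bmp6, whose RefSeq start lies inside the GENCODE gene. Windows were read for 5 of the 10 members. The capitals mark GC-rich elements of the kind bound by SMAD proteins, searched on both strands as GGCGCC and GGAGCC.
Grem1, chr2:113758649-113758898, minus strand: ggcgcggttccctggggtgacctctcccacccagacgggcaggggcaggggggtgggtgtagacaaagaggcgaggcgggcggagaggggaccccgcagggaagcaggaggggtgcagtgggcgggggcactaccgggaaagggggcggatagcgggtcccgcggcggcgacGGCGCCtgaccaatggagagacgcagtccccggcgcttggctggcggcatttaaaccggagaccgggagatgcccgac
Bmp4, chr14:46390670-46390919, minus strand: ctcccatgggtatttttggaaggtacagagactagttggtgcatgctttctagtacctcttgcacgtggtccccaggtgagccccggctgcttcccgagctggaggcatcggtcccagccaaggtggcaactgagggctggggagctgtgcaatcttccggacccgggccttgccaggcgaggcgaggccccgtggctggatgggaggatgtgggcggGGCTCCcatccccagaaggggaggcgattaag
Gdf10, chr14:33923337-33923586, plus strand: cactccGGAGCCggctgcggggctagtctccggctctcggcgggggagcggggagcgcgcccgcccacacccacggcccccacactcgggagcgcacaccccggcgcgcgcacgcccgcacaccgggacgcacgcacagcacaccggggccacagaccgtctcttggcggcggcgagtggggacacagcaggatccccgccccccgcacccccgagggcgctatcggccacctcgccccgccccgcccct
Grem1 held 1 GGCGCC, which 9.59% of 32851 promoters of that length held, and Bmp4 and Gdf10 each held 1 GGAGCC, on either strand, which 26.0% held. The RUNX core TGTGGT, present in 14.05% of promoters, was in none of these windows. The matches are a description of the letters. The window listed for Bmp6 held none of the 3 motifs, and 2 of the 3 windows listed for Bmpr1b, which overlap, held 1 GGAGCC.

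Bmp2, a ligand with roles in chondrocyte maturation and fracture repair (chromosome 2, 133552159 to 133562885, GRCm38), was at 530 CPM (503 to 557) in the Prg4+Cilp gate, with UMIs in 124 of 197 cells. It stood at 381 CPM (354 to 409) in the Col10a1+Ihh gate, 268 CPM (247 to 290) in the Dcn+Col3a1 gate and 105 CPM (97.0 to 114) in the Col2a1 gate. The Prg4+Cilp level was 1.39-fold that of the Col10a1+Ihh gate (log2 ratio 0.48, 0.35 to 0.60), a small step with 35 cells in both, which turned to −0.070 when each cell weighed the same and was 0.93 without the 35 cells. In the Bglap gate it was 50.9 CPM, and in the Cxcl12, Cdh5 and Ptprc gates 9.41, 15.1 and 14.3 CPM, values whose intervals overlapped.

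A few cells carried much of Bmp2. One cell held 275 UMIs, which is 18.6% of the Prg4+Cilp total, 45.3% of the Dcn+Col3a1 total and 46.1% of the Ptprc total, because it passed all 3 gates. The Dcn+Col3a1 cells outside the Prg4+Cilp gate, 83 in number, had Bmp2 at 66.8 CPM (52.5 to 83.7), while the 81 shared cells had it at 466 CPM (427 to 507), with 51.7% of those UMIs in the cell of 275. The Ptprc cells in no other gate had 39 UMIs in 24 of 3150 cells, or 1.00 CPM. Without that cell the shared cells stood at 236 CPM (208 to 267), and cells with Bmp2 were 42 of the 81 and 29 of the 83.

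Gdf5, a ligand known from joint formation (chromosome 2, 155941023 to 155945367), was sparse, with 81 UMIs in 38 kept cells. It stood at 19.7 CPM (14.9 to 25.7) in the Prg4+Cilp gate and 18.7 CPM (13.2 to 25.8) in the Col10a1+Ihh gate, which were not separated (log2 ratio 0.074, −0.55 to 0.72). Within the Prg4+Cilp gate, Gdf5 was at 22.6 CPM in the 84 cells outside both the Col10a1+Ihh and Dcn+Col3a1 gates and at 1.75 CPM, 2 UMIs, in the 81 cells shared with Dcn+Col3a1. Bmpr1b, the receptor through which GDF5 is known to signal (chromosome 3, 141837136 to 142169425), had 27 UMIs in 24 kept cells. Of these UMIs, 23 lay in 20 cells of the Prg4+Cilp gate, at 8.25 CPM (5.23 to 12.4). No Bmpr1b UMI was seen in 243 Col2a1 cells, which allows 0.530 CPM, nor in 54 Bglap cells, which allows 2.04 CPM. Both genes were therefore seen mainly with articular markers, and most single cells had no UMI of either.

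Bmp4 (chromosome 14, 46383520 to 46390669), a ligand with known roles from early mesoderm to bone, was highest in the Cxcl12 gate. It was at 136 CPM (91.3 to 196) there, in 11 of 23 cells, with 29 UMIs and at most 6 in a cell. The Dcn+Col3a1, Cdh5 and Prg4+Cilp gates followed at 34.0, 27.8 and 17.2 CPM, and the Cxcl12 level was 4.01-fold the Dcn+Col3a1 level (log2 ratio 2.00, 1.33 to 2.64, and 1.05 between cells of exactly 1 gate). The Dcn+Col3a1 and Cdh5 levels were not separated (log2 ratio 0.29, −0.39 to 1.02). In the Col2a1 and Col10a1+Ihh gates Bmp4 was near 0, with 6 UMIs in 4 of 243 Col2a1 cells and 1 UMI in 79 Col10a1+Ihh cells. In the Cdh5 gate, the 42 cells without Ptprc had 50.3 CPM (30.3 to 78.5) and the 47 with it 10.3 CPM (3.34 to 24.0).

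Bmp6 (chromosome 13, 38345107 to 38500302), a ligand known in iron control by endothelium and in hypertrophic cartilage, was highest in the Cxcl12 gate, followed by the Col10a1+Ihh gate. It was at 174 CPM (123 to 240) in the Cxcl12 gate, in 14 of 23 cells, and at 72.4 CPM (61.1 to 85.3) in the Col10a1+Ihh gate, in 43 of 79 cells. The ratio of the former to the latter was 1.26 on the log2 scale (0.70 to 1.79). In the Col2a1 gate, the 43 cells shared with Col10a1+Ihh held 128 of 141 Bmp6 UMIs, at 89.0 CPM (74.3 to 106), and the other 200 cells held 13, at 3.08 CPM (1.64 to 5.26). Bmp6 in Col2a1 cells was thus found where Col10a1 or Ihh was.

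Gdf10 (chromosome 14, 33923587 to 33937983), a more distant member of the family, had another order within cartilage. It was at 56.4 CPM (29.2 to 98.6) in the Cxcl12 gate, on 12 UMIs in 5 cells, and at 52.1 CPM (46.3 to 58.4) in the Col2a1 gate, on 295 UMIs in 108 cells, and these were not separated (log2 ratio 0.11, −0.85 to 0.94). Within the Col2a1 gate the 200 cells outside Col10a1+Ihh stood at 62.7 CPM (55.4 to 70.8), and the 43 inside it at 20.9 CPM (14.1 to 29.8). Gdf10 was therefore lower, and Bmp6 higher, in the Col2a1 cells with hypertrophic markers. No Gdf10 UMI was seen in the 89 Cdh5 cells, which allows 3.47 CPM.

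Of the antagonists, Grem1 (gremlin 1, chromosome 2, 113746164 to 113758646) was high in 3 gates, 2 of which shared most of its UMIs. It was at 320 CPM (248 to 405) in the Cxcl12 gate, in 14 of 23 cells. It was at 261 CPM (239 to 284) in the Col10a1+Ihh gate, in 25 of 79 cells, and at 254 CPM (235 to 273) in the Prg4+Cilp gate, in 61 of 197. The first and second were not separated (log2 ratio 0.29, −0.093 to 0.66), and a single cell with 240 UMIs gave 46.6% of the Col10a1+Ihh total and 33.9% of the Prg4+Cilp total. The 35 cells in both of these gates held 514 of their 515 and 707 UMIs. In the Prg4+Cilp gate Grem1 was at 82.8 CPM (67.3 to 101) in the 84 cells outside the Col10a1+Ihh and Dcn+Col3a1 gates and at 95.4 CPM (78.4 to 115) in the 81 shared with Dcn+Col3a1. In the Col2a1 gate Grem1 was at 2.47 CPM (1.35 to 4.15), with 14 UMIs in 5 cells.

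Chrdl1 (chordin-like 1, chromosome X, 143285674 to 143394262) was at 306 CPM (236 to 390) in the Cxcl12 gate, in 15 of 23 cells. In the Col10a1+Ihh and Col2a1 gates it was at 106 CPM (92.0 to 121) and 89.6 CPM (81.9 to 97.7), and the Cxcl12 level was 2.89-fold the first of these (log2 ratio 1.53, 1.11 to 1.94). In the Prg4+Cilp gate it was at 11.8 CPM (8.15 to 16.6). Nog (noggin, chromosome 11, 89300638 to 89302332) was shared by the same chondrocyte gates but not by the Cxcl12 gate. It was at 56.2 CPM (46.3 to 67.7) in the Col10a1+Ihh gate and 49.1 CPM (43.5 to 55.2) in the Col2a1 gate, which were not separated (log2 ratio 0.20, −0.14 to 0.52). Without the 43 cells in both gates that ratio was −2.85. In the Cxcl12 gate it had 1 UMI.

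Bambi (chromosome 18, 3507923 to 3516404) was the most widely detected of the 10, with UMIs in 525 of 4472 kept cells. It was at 296 CPM (269 to 325) in the Bglap gate, in 38 of 54 cells, and at 160 CPM (144 to 177) in the Dcn+Col3a1 gate, in 74 of 164, for a log2 ratio of 0.89 (0.68 to 1.09), and of 2.83 between cells of exactly 1 gate. In the Cdh5, Col2a1, Col10a1+Ihh and Prg4+Cilp gates its level lay between 81.4 and 99.6 CPM, with overlapping intervals. One cell in the Bglap, Col2a1, Dcn+Col3a1 and Ptprc gates held 101 UMIs.

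Against all other kept barcodes, 9 members had the 50 UMIs asked for, and a gene was called at 4-fold or more. Of the 4472 kept barcodes 3286 were in the Ptprc gate, so for the other gates this was mainly a comparison with leukocyte-marker cells. A call does not set a gate above each of the other gates. In the Col2a1 gate 5 of 9 members were called, against 10.3% of the 12952 genes tested, and in the Col10a1+Ihh gate 6 of 9 against 7.17%. The counts were 6 against 8.35% in the Prg4+Cilp gate, 3 against 6.28% in the Bglap gate, 5 against 13.4% in the Cxcl12 gate, 5 against 9.77% in the Dcn+Col3a1 gate and 3 against 7.54% in the Cdh5 gate. In the Ptprc gate 0 of 9 were called against 4.45%, and no test was possible with 1 pool. The genes were listed for a pathway known from skeletal cells, so these shares describe the list and its choice together. Of the members, Nog was the furthest above other barcodes in the Col2a1 gate (log2 ratio 6.11) and Grem1 in the Prg4+Cilp gate (7.24).

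The Col10a1+Ihh gate held different members in different cells, which is seen when it is divided by the Prg4+Cilp gate (a division chosen after the values were seen, as were the other divisions of gates given here). The 44 cells outside the Prg4+Cilp gate had a median of 32456 UMIs, and 40 of them had Ihh and 43 were in the Col2a1 gate. Their Col10a1 was at 14357 CPM and their Pth1r, the parathyroid hormone receptor of pre-hypertrophic cells, at 2934 CPM. The 35 cells inside it had a median of 12856 UMIs, and 1 of them had Ihh. Their Col10a1 was at 5358 CPM and Pth1r at 175 CPM, beside Prg4 at 64347, Cytl1 at 27083 and Clu at 3878 CPM. The former carried growth plate markers and the latter articular ones, and Prg4, Cilp, Col10a1 and Ihh were used by the gates.

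The antagonists divided along the same line. Chrdl1 had 207 UMIs in 40 of the 44 cells, at 141 CPM (123 to 162), and 2 UMIs in 1 of the 35 cells, at 3.94 CPM (0.48 to 14.2), a log2 ratio of −5.16 (−8.22 to −3.29). Nog had 108 UMIs in 32 of the 44, at 73.6 CPM (60.4 to 88.9), and 3 UMIs in 3 of the 35, at 5.91 CPM (1.22 to 17.3), a log2 ratio of −3.64 (−5.94 to −2.05). Grem1 ran the other way, with 1 UMI in the 44 cells, at 0.68 CPM, and 514 UMIs in 24 of the 35, at 1013 CPM (928 to 1105), a log2 ratio of 10.54 (8.05 to 15.84). Without the cell of 240 UMIs, Grem1 in the other 34 cells was at 565 CPM (500 to 636), with a log2 ratio of 9.70 (7.2 to 15.00), and a second cell, like the first above the WPRE threshold used below, held 145 of the remaining 274 UMIs. Without both, the other 33 cells stood at 273 CPM (228 to 324), a log2 ratio of 8.65 (6.14 to 13.96). Noggin and chordin-like 1 were thus seen in cells with growth plate markers and gremlin 1 in cells with articular markers, although all were inside the Col10a1+Ihh gate.

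**Figure D2:**
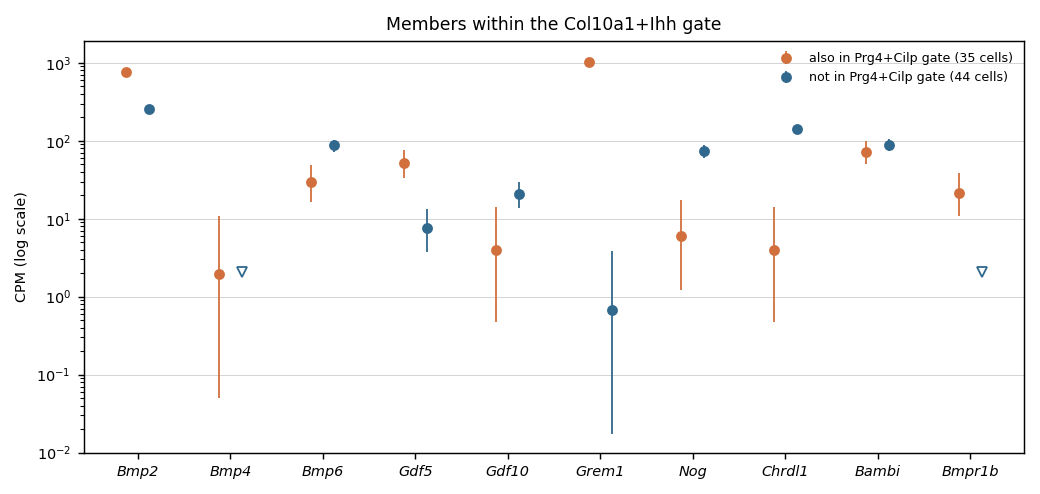
CPM (vertical axis, log scale) of the 10 genes in the 79 cells of the Col10a1+Ihh gate, divided into 35 cells also in the Prg4+Cilp gate and 44 not; bars are exact Poisson 95% intervals and open triangles stand at the level of 3 UMIs where none was seen. Grem1 is at 1013 against 0.68 CPM, and Chrdl1 at 3.94 against 141 CPM.

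The ligands and receptors of these cells differed as well. Bmp6 was at 87.3 CPM (72.8 to 104) in the 44 cells and 29.6 CPM (16.6 to 48.8) in the 35, and Gdf10 at 20.5 CPM (13.8 to 29.2) and 3.94 CPM (0.48 to 14.2). For Gdf10 this rested on 1 cell with 13 of 30 UMIs, without which the log2 ratio was −1.59 (−4.75 to 0.48). Bmp2, Gdf5 and Bmpr1b were higher in the 35: Bmp2 at 753 CPM (679 to 833) against 252 CPM (227 to 279), and Gdf5 at 51.3 CPM (33.5 to 75.1) against 7.50 CPM (3.74 to 13.4), where 81.8% of the 11 UMIs of the latter were in 1 cell. Without the cell of 109 Bmp2 UMIs the first Bmp2 level was 557 CPM (493 to 627), and without that of 146 the second was 157 CPM (137 to 178). Bmpr1b had 11 UMIs in 8 of the 35 cells, at 21.7 CPM (10.8 to 38.8), and 0 in the 44, which allows 2.05 CPM. Bambi did not separate the cells, at 71.0 CPM (49.7 to 98.3) and 87.9 CPM (73.4 to 104), and Bmp4 had 1 UMI in all 79.

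The shares of cells kept this order at equal depth. With each cell thinned to 3000 UMIs, Chrdl1 was seen in 33.4% of the 44 cells and 0.34% of the 35, where the unthinned shares were 90.9% and 2.86%. Grem1 was seen in 0.30% and 44.6%, where the unthinned shares were 2.27% and 68.6%. Nog was seen in 18.6% and 1.20%, with unthinned shares of 72.7% and 8.57%. As a background, in the 3150 Ptprc cells of no other gate, with a median of 9899 UMIs, the share with a UMI was 0.0952% for Chrdl1, 0.0635% for Grem1 and 0.127% for Nog.

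Single cells showed the same division, drawn in the plot of Grem1 against Chrdl1. Of the 79 cells, 41 had Chrdl1 and 25 had Grem1, and 1 had both, where the product of the shares gives 13.0. Nog and Grem1 were together in 2 cells, where the product gives 11.1. Nog and Chrdl1 were together in 32 cells, where the product gives 18.2, and depth per cell adds to such a count. Divided by Ihh instead, the 41 cells with an Ihh UMI held 0 Grem1 UMIs and the 38 without held 515. The highest counts in a cell were 240 UMIs for Grem1 and 18 for Chrdl1.

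**Figure D3:**
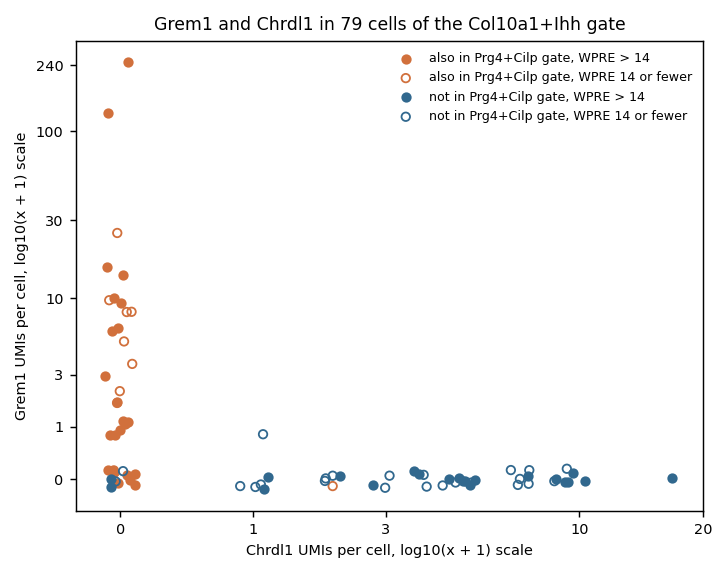
UMIs of Chrdl1 (horizontal axis) and Grem1 (vertical axis) in each of 79 cells of the Col10a1+Ihh gate, on log10(x + 1) scales with a small random shift so that cells do not hide each other; filled circles have more than 14 WPRE UMIs and orange ones are also in the Prg4+Cilp gate. Cells with Grem1 lie along the vertical axis and cells with Chrdl1 along the horizontal axis, with 1 cell holding both genes and 14 neither.

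Some other genes of the pathway divided these cells too. Of the 80 listed, 34 had at least 20 UMIs in the 79 cells. Of these 34, 9 were at least 4-fold higher in the 35 cells, against 4.25% of the 6943 genes with as many UMIs, and 4 at least 4-fold lower, against 5.49%. For 10 of the 34 the interval of the ratio included 0, among them Bmp7 (log2 ratio 0.83, −0.65 to 2.21) and Dlx5 (−0.57, −2.00 to 0.65). Inhba, the activin subunit, was at 1096 CPM in the 35 cells and 6.82 CPM in the 44 (log2 ratio 7.33, 6.44 to 8.40). Chrdl2, a second chordin-like gene, was at 177 against 10.2 CPM (log2 ratio 4.12, 3.32 to 5.01), opposite to Chrdl1. The co-receptor Tgfbr3 was at 327 against 15.7 CPM and the ligand Bmp5 at 110 against 8.18 CPM. The ligand Bmp8a was lower in the 35, at 17.7 against 87.9 CPM (log2 ratio −2.31, −3.47 to −1.34), as was Dlx3, a homeobox target, at 1.97 against 28.0 CPM. The activin subunit Inhba and the type I receptor Acvr1, at 101 against 15.0 CPM, were thus found beside Bmp2 and Grem1, and Bmp8a beside Bmp6, Nog and Chrdl1.

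The Bglap gate was also of more than 1 kind. Of its 54 cells, 25 were in the Col2a1 gate, with Col9a1 at 2930 CPM in 16 of them and Col1a1 at 33346 CPM in 14, and 29 were not, with Col9a1 at 5.40 CPM and Col1a1 at 59460 CPM. The median cell had 1 Col1a1 UMI in the 25 and 255 in the 29. Ihh was seen in 12 of the 25 and 3 of the 29, and Col10a1 in 7 and 0. All 44 Nog UMIs and all 18 Bmp6 UMIs of the gate lay in the 25 cells, as did 82 of 84 Chrdl1 UMIs. The 29 cells had no Nog or Bmp6 UMI, which allows 5.40 CPM, and their Chrdl1 was at 3.60 CPM (0.44 to 13.0) against 89.4 CPM (71.1 to 111). Nog, Bmp6 and Chrdl1 in the Bglap gate were therefore in cells that also carried Col2a1. The 25 cells had a median of 32457 UMIs and the 29 of 17423, and 8 and 6 of them were in the Ptprc gate. Doublets were called in 0 of the 54, also in 0 of the 14 with a Ptprc UMI. The call therefore cannot tell whether barcodes here are mixed.

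**Figure D4:**
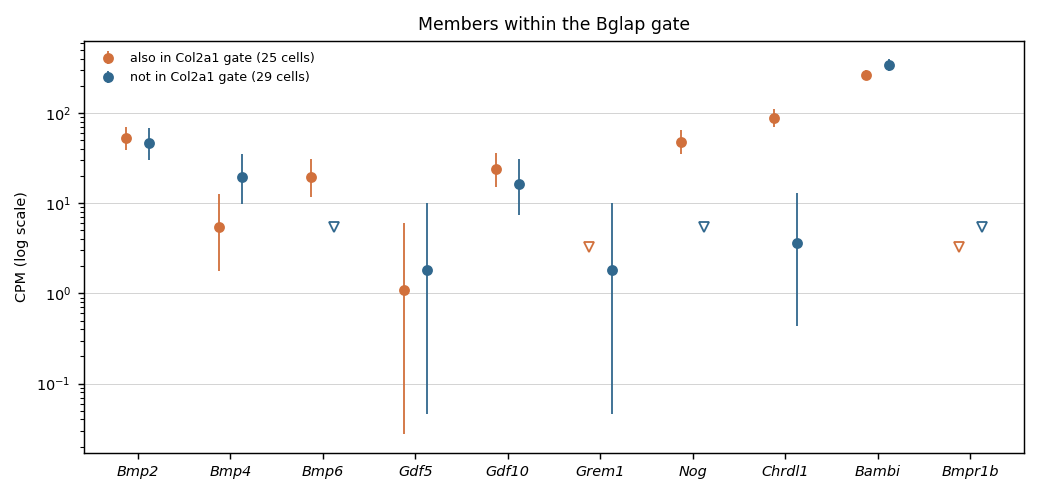
CPM (vertical axis, log scale) of the 10 genes in the 54 cells of the Bglap gate, divided into 25 cells also in the Col2a1 gate and 29 not; bars are exact Poisson 95% intervals and open triangles stand at the level of 3 UMIs where none was seen. Nog and Bmp6 are at 47.9 and 19.6 CPM in the former with none seen in the latter, while Bambi is at 268 and 342 CPM.

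Bambi was high in both sets of Bglap cells, at 268 CPM (236 to 304) in 18 of 25 and 342 CPM (295 to 394) in 20 of 29, with 41.1% of the UMIs of the 25 in 1 cell. Bmp4 was at 5.45 CPM (1.77 to 12.7) and 19.8 CPM (9.88 to 35.4), on 5 and 11 UMIs. Bmp2 was at 53.4 and 46.8 CPM and Gdf10 at 24.0 and 16.2 CPM, with ratios whose intervals included 0. Bambi was thus found in Bglap cells with and without Col2a1.

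The WPRE mark divided some members and not others. Cells above 14 UMIs of WPRE were counted as marked, the threshold by which the study told osteoblasts derived from HCs from others. A marked cell with Col10a1 may be an HC itself, so in the chondrocyte gates the mark shows the reporter and not descent. In the Col10a1+Ihh gate 45 of 79 cells were above it, 24 of the 35 with articular markers and 21 of the 44 without. Of the 44, 10 lay within a few WPRE UMIs of that threshold, against 0 of the 35. Other thresholds were not tried within the 44 alone. In the 44, Bmp6 was at 140 CPM (114 to 171) in 20 of 21 marked cells and 36.1 CPM (23.8 to 52.5) in 13 of 23 others, a log2 ratio of 1.96 (1.34 to 2.63). Bambi was at 131 CPM (106 to 160) and 46.8 CPM (32.6 to 65.1), a log2 ratio of 1.48 (0.91 to 2.09). Bmp2 stood at 424 CPM in marked and 86.9 CPM in other cells. Its log2 ratio of 2.29 (1.90 to 2.70) became 1.42 (1.00 to 1.86) without the cell that held 146 UMIs. Nog was at 73.7 CPM in marked and 73.5 CPM in other cells, with a log2 ratio of 0.0033 (−0.57 to 0.57), and Chrdl1 at 161 and 122 CPM, a log2 ratio of 0.41 with an interval that reached 0. The ligands Bmp2 and Bmp6 and the decoy Bambi were thus higher in marked growth plate cells, and for the antagonists Nog and Chrdl1 the interval reached 0. In the 35 cells with articular markers Bmp2 was not separated by the mark once 1 cell was left out, with a log2 ratio of 0.53 (0.17 to 0.90) that became −0.053 (−0.43 to 0.34) without the cell of 109 UMIs.

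Gdf10 was lower in marked cells of the 44, at 6.95 CPM (2.26 to 16.2) against 33.4 CPM (21.6 to 49.4), but 13 of the 25 UMIs of the latter lay in 1 cell, and without it the log2 ratio was −1.28 (−3.14 to 0.33). In the 35 cells with articular markers, Grem1 was at 1239 CPM (1128 to 1359) in marked and 430 CPM (329 to 553) in unmarked cells. Without the cell of 240 UMIs the marked cells stood at 621 CPM and the log2 ratio went from 1.53 (1.14 to 1.94) to 0.53 (0.11 to 0.96). A second marked cell held 145 UMIs, and without both cells (left out after the values were seen) the marked cells stood at 206 CPM (160 to 261), below the unmarked ones, a log2 ratio of −1.07 (−1.59 to −0.54). The direction of the Grem1 difference by WPRE mark in these cells thus rested on 2 cells, and the shares of cells with Grem1 were 16 of 24 and 8 of 11.

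Over the whole Prg4+Cilp gate, 30 of 197 cells were above the WPRE threshold. In these Grem1 was at 1067 CPM (975 to 1165), in 19 of 30 cells, against 90.5 CPM (78.6 to 104) in 42 of 167 others, a log2 ratio of 3.56 (3.32 to 3.8), 2.68 (2.41 to 2.95) without the cell of 240 UMIs and 1.52 (1.18 to 1.86) without that of 145 as well. Bmpr1b was at 25.8 CPM (13.3 to 45.0) against 4.74 CPM (2.37 to 8.48), a log2 ratio of 2.44 (1.14 to 3.77). Gdf10 was at 2.15 CPM (0.05 to 12.0) against 35.3 CPM (28.1 to 43.8), a log2 ratio of −4.04 (−9.36 to −1.52), and Bmp4 at 2.15 against 20.2 CPM. Of these 30 cells, 24 were also in the Col10a1+Ihh gate, as were 11 of the 167. Among the unmarked cells, Grem1 was at 430 CPM (329 to 553) in those 11 and 68.4 CPM (57.8 to 80.3) in the other 156, a log2 ratio of 2.65 (2.20 to 3.09). The 6 marked cells outside the Col10a1+Ihh gate were at 438 CPM (319 to 589), with 68.2% of their 44 UMIs in 1 cell. For Bmpr1b, Gdf10 and Bmp4 these 6 cells held 1, 0 and 0 UMIs, too few to separate the mark from the gate. Bambi, at 85.9 CPM in the 30 and 80.6 CPM in the 167, had a log2 ratio of 0.092 (−0.44 to 0.59).

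In the Bglap gate the mark went with lower Bambi, at 169 CPM (131 to 213) in 17 marked cells and 345 CPM (310 to 382) in 37 others, a log2 ratio of −1.03 (−1.42 to −0.66) that turned at lower WPRE thresholds, to 0.70 at more than 9 UMIs. Without the cell of 101 Bambi UMIs the others stood at 275 CPM (243 to 310) and the log2 ratio was −0.70 (−1.11 to −0.32). Gdf10 had 0 UMIs in the 17 marked cells, which allows 7.33 CPM, and 31 UMIs in 12 of the 37 others, at 29.1 CPM (19.8 to 41.3), or 17.5 CPM (10.4 to 27.7) without 1 cell of 13 UMIs. In the Cxcl12 gate, with 10 marked and 13 other cells, Bmp4, Bmp6 and Grem1 had log2 ratios of 0.10 (−1.06 to 1.25), −1.04 (−2.21 to 0.026) and −0.49 (−1.26 to 0.25). Chrdl1 was at 212 CPM (131 to 324) and 387 CPM (281 to 520), a log2 ratio of −0.87 (−1.69 to −0.086), and −0.65 (−1.53 to 0.20) without 1 cell. Marked and unmarked cells of the Cxcl12 gate thus both held Bmp4, Bmp6, Grem1 and Chrdl1.

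Some values in the Cdh5 and Ptprc gates came from shared cells. In the Cdh5 gate Chrdl1 was at 25.5 CPM and Grem1 at 18.5 CPM, but without the 4 cells shared with the Cxcl12 gate they were at 2.47 CPM (0.30 to 8.92) and 4.94 CPM (1.35 to 12.6). Bmp6 went from 23.2 to 13.6 CPM (6.78 to 24.3), while Bmp4 and Bambi kept 27.2 and 101 CPM. All 20 Bmp6 UMIs of the gate lay in the 42 cells without Ptprc. Bambi in the 42 Cdh5 cells without Ptprc was at 169 CPM (130 to 216), in 21 cells, and in the 47 with Ptprc at 45.3 CPM (28.4 to 68.6), in 5 cells. Of the 22 UMIs of the latter 17 lay in 1 cell, without which they stood at 11.4 CPM (3.69 to 26.5).

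In the 3150 Ptprc cells of no other gate, Bambi was the one member seen in many cells, with 283 UMIs in 219 cells, at 7.29 CPM (6.46 to 8.19). By blood markers in cells of none of the other 7 gates, it was at 12.0 CPM (9.35 to 15.2) in cells with Csf1r, the macrophage growth factor receptor, 8.16 CPM (6.36 to 10.3) in cells with the T and NK genes Cd3e or Nkg7, and 6.01 CPM (4.93 to 7.25) in cells with the neutrophil gene S100a8. It was at 3.58 CPM (2.45 to 5.05) in cells with the B cell gene Cd79a. Bmp4 had 16 UMIs in 13 of 797 Cd79a cells, at 1.79 CPM (1.02 to 2.91), and 1 or none in the S100a8, Csf1r and Cd3e or Nkg7 cells. Bmp2 had 25 UMIs in 11 of 465 Csf1r cells, at 4.28 CPM (2.77 to 6.32). In the 3150 cells the other 7 members had at most 5 UMIs each, and Gdf5 and Bmpr1b none, which allows 0.0773 CPM.

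Of 80 further genes of the pathway, 53 had at least 50 UMIs, and 46 of these were 4-fold or more above all other kept barcodes in some gate, against 29.2% of the 12952 genes tested: 7 of 9 ligands, 10 of 11 receptors, 11 of 12 antagonists and modulators, 7 of 10 transducers and 11 of 11 targets. By gate, 30 of 53 were called in the Cxcl12 gate (13.4% of all genes), 29 in Dcn+Col3a1 (9.77%), 22 in Prg4+Cilp (8.35%), 17 in Cdh5 (7.54%), 16 in Col2a1 (10.3%), 13 in Col10a1+Ihh (7.17%), 13 in Bglap (6.28%) and 0 in Ptprc (4.45%). The heat map of pathway genes shows 30 of them.

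In the Cxcl12 gate, beside Bmp4, Grem1 and Chrdl1, the follistatin-like gene Fstl1 was at 1721 CPM (1549 to 1907), in all 23 cells. Follistatin, Fst, which binds activins, was at 287 CPM (219 to 368), the target Id4 at 419 CPM (336 to 515) and the co-receptor Tgfbr3 at 376 CPM (298 to 468). The 4 cells shared with the Cdh5 gate held 20 of the 65 Chrdl1, 12 of the 68 Grem1 and 9 of the 37 Bmp6 UMIs of the gate. In the other 19 cells Bmp4 was at 170 CPM (112 to 248), Bmp6 at 177 CPM (117 to 255), Grem1 at 353 CPM (267 to 459) and Chrdl1 at 284 CPM (207 to 380). Ligands and antagonists thus remained in the gate without its Cdh5 cells. In the Bglap gate, beside Bambi, the ligand Bmp3 was at 84.1 CPM (70.0 to 100), the protease Bmp1, which cleaves chordin and procollagens, at 337 CPM (308 to 368), and the osteoblast factor Sp7 at 113 CPM (96.8 to 132). In the Prg4+Cilp gate, beside Bmp2, Gdf5 and Grem1, Inhba was at 621 CPM (592 to 651), Htra1 at 345 CPM, Crim1 at 213 CPM and Msx1 at 30.5 CPM. In the Col2a1 gate Bmp7 was at 46.5 CPM (41.0 to 52.4), in the Dcn+Col3a1 gate Nbl1, another secreted antagonist, at 427 CPM (401 to 455), and in the Cdh5 gate the endothelial co-receptor Eng at 423 CPM (380 to 468).

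**Figure D5:**
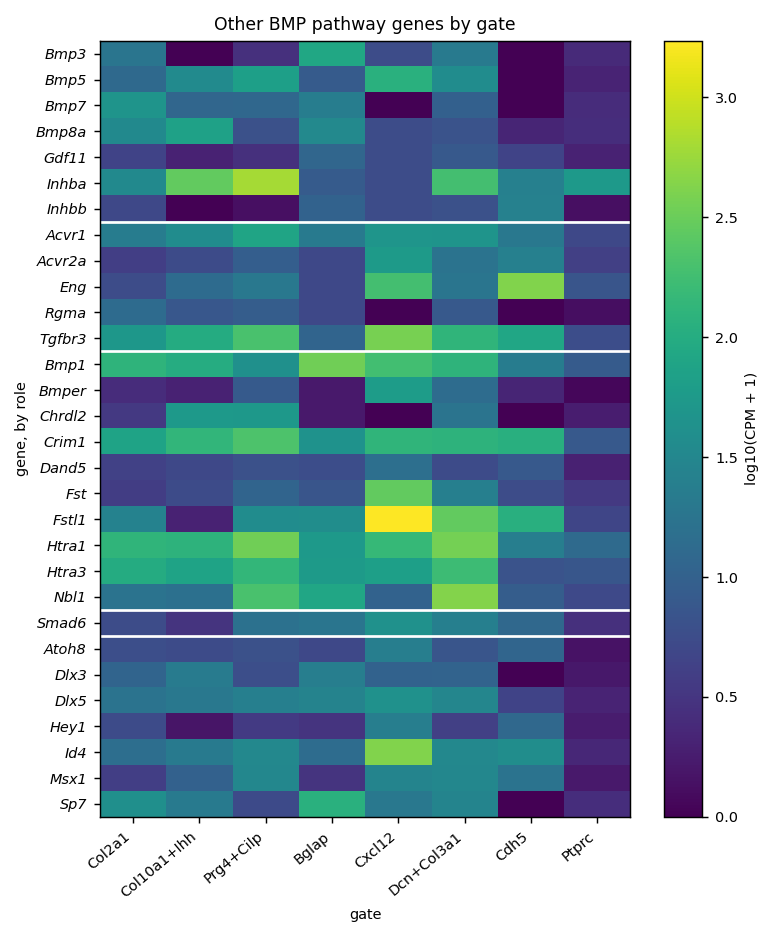
Log10(CPM + 1), by colour, of 30 further pathway genes (rows, in blocks of ligands, receptors, antagonists and modulators, a transducer and targets) in 8 gates (columns). Fstl1 reads 1721 CPM in the Cxcl12 column and Inhba 621 CPM in the Prg4+Cilp column.

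Genes with a similar profile were sought over the 8 gates, by Pearson's r of log2(CPM + 10), which share cells and depth and are a description only. The nearest to Bmp2 were Dusp14, Ppp1r14a and Ak4 (r = 0.996, 0.993 and 0.992), and to Bmp4 Etv1, Tbc1d12 and Pde7b (0.987, 0.985 and 0.983). Nog was nearest to Wscd2, Kcnq1ot1 and 2410015M20Rik (0.989, 0.988 and 0.986) and Chrdl1 to Cfdp1, Vps41 and AU022252 (0.985, 0.977 and 0.975). Gdf5 was nearest to Slc2a1, Chrdl2 and Serpina1b (0.939, 0.936 and 0.919). For Bmp6 these were Slc10a3, Ube2v2 and D10Jhu81e (0.968, 0.961 and 0.957), for Gdf10 Mzt2, Ift81 and Smim7 (0.977, 0.971 and 0.967), for Grem1 Vti1b, Pttg1 and Pex3 (0.949, 0.943 and 0.937) and for Bambi Galnt1, Pja1 and Sgta (0.937, 0.925 and 0.917). Several of these are widely expressed genes with a small range, such as Vti1b at 35.3 to 56.4 CPM, so that a high r does not mean a level that is as uneven.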

How the data were processed

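Single-cell libraries from the tibiae of 3 pooled mice were analysed as 1 pool. The authors made the deposited raw UMI counts per gene and barcode with Cell Ranger 3.1.0 from an alignment to mm10 with the sequences of tdTomato and WPRE added. Seurat 3 is named in the submitters' processing notes, and its output was not used. Which gene annotation they used is not given in these sources. Gene positions came from GENCODE M21 (GRCm38).

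Barcodes with at least 1600 genes were kept, with no mitochondrial limit (12 were over 20%). UMIs were summed per gate, with numpy 2.4.6 and scipy 1.17.1 (Python 3.11.15). For 0 UMIs, the level of 3 UMIs is given as the limit. Thinning to 3000 UMIs was averaged over 100 draws. For doublets, Scrublet (scanpy 1.11.5) was set to expect 6%. On the 4472 kept barcodes it marked 2, so it was run on all 12564, where it marked 3.54%, and 7.42% of the kept ones. Doublets were kept in the values and left out in an alternative. Named were all 10 members, the 30 pathway genes furthest above other barcodes among those called, and the 3 genes most like each member with at least 50 UMIs, among genes with at least 100. The members and lists were chosen with earlier results of these data known. Scripts were tested on simulated data.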

Additional observations from a re-analysis of the deposited data

Results flagged for a closer look

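The 8092 barcodes under the gene floor, 33830216 UMIs in all, entered no main comparison. Only the alternative with a lower gene floor used any of them. In these barcodes 7 members were above the limit of 3 UMIs. The barcodes held 78 UMIs of Bambi, 36 of Bmp2, 29 of Bmp4, 25 of Grem1, 24 of Chrdl1, 16 of Bmp6 and 14 of Gdf10. For Bmp4 this was 13.2% of all its UMIs in the matrix and for Bambi 5.41%. Of the Bambi UMIs, 54 lay in barcodes with a Ptprc UMI. Of those of Chrdl1, Grem1 and Gdf10, 9, 7 and 6 lay in 6 barcodes that met the Cxcl12 gate. Whether these are shallow cells or free RNA was not tested.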

How the results depend on the processing

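No paired analysis was possible because the 8 samples are of 1 group and the matrix does not tell them apart. Leaving out single samples could not be done for the same reason. A lower and a higher gene floor, a limit of 20% mitochondrial UMIs and leaving out called doublets moved none of the 10 ratios of the highest gate to the next by more than their interval.

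For Bmp2 that log2 ratio, 0.48, was 0.64 with doubled gate thresholds, 0.20 with halved ones, 0.10 without Ptprc cells, 0.21 without its top cell, −0.070 with each cell weighing the same and 0.93 without the 35 cells shared by both gates (leaving out shared cells was chosen after seeing the data). Of these, equal weights turned the order of the 2 gates. For Grem1 (0.29), it was −0.11 without Ptprc cells and −0.43 with equal weights. For Bambi (0.89), it was 1.58 with doubled thresholds, 1.26 with equal weights, 2.83 in cells of exactly 1 gate and 1.40 without shared cells. Without shared cells Gdf5 (0.074) was at 0.76 and Nog (0.20) at −2.85. Chrdl1 (1.53) was at 2.03 with equal weights, and Bmp4 (2.00) at 1.05 in cells of exactly 1 gate. In cells of exactly 1 gate, the members called at 4-fold were 3 in the Col2a1 gate and 2 in the Dcn+Col3a1 gate. The share over all genes was not worked out for such cells, so these counts have no background beside them. Neither the Col10a1+Ihh count nor the 7 ratios that use the Col10a1+Ihh gate gave a value, since it has 0 such cells. Bmpr1b without shared cells and Gdf10 by WPRE mark in the Bglap gate gave none either, with no UMI on 1 side. The cause of the other moves was not tested.

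For the WPRE mark at more than 4 WPRE UMIs, the log2 ratios in the Col10a1+Ihh gate were 1.37 for Bmp2 and 1.79 for Grem1, against 1.77 and 2.58 at more than 14 (1.17 and 1.38 there with equal weights). For Grem1 it was −0.11 without its 2 top cells (chosen after seeing the data). In the Bglap gate they were −1.80 for Bmp2, which was −0.080 at more than 14 (−0.91 with equal weights there), −1.18 for Chrdl1, 0.057 at more than 14 (−0.74 at more than 9) and 0.93 for Bambi (0.70 at more than 9), reversing the sign for Bambi. Thinned to 3000 UMIs, the share of cells with a UMI in the highest gate was 40.9% for Bmp2, 37.2% for Bmp6, 5.35% for Gdf5, 10.9% for Nog, 37.9% for Bambi and 2.41% for Bmpr1b. Intervals cover counting error only, and the Cxcl12 gate, highest for 5 members, held 23 cells.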

Other observations

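In the 697 kept barcodes of no gate, Bambi was at 8.48 CPM (6.64 to 10.7), Bmp2 at 5.54 CPM (4.07 to 7.36) and Chrdl1 at 2.59 CPM (1.62 to 3.92), and no Nog UMI was seen, which allows 0.353 CPM.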
